A study of Glycine max with 12 samples.

Results

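Foliar silica nanoparticles (nano-SiO2) and melatonin (MT) were combined in a factorial experiment on soybean leaves, and the genes described here are those whose response to the combined spray was not the sum of the responses to the single sprays. The interaction of a gene was its MT effect between the groups that received nano-SiO2, less its MT effect between the groups that did not, on the log2(FPKM + 1) scale. FPKM counts fragments per length of transcript and per size of library. A gene was tested when 3 or more of the 12 libraries held 1 FPKM or more of it, which kept 28260 of 46446 genes, and 148 of them were called at an adjusted p under 0.05 in limma, a linear model fitted across all genes. That is 0.524% of the tested genes, with 34 positive (0.12%) and 114 negative (0.403%) interactions.

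All plants were cultivar HN95 (wild type in the labels) under saline-alkali stress from a mixed sodium salt solution (sulfate and bicarbonate at 320 mM, chloride and carbonate at 40 mM). The groups were nano-SiO2+MT (200 mg/L and 300 µM together), nano-SiO2 alone (200 mg/L), MT alone (300 µM) and a stressed control, with 3 libraries each from leaves taken 7 days after spraying. The labels do not say what control plants were sprayed with, whether the biological replicates were separate plants or pots, or how old the plants were, and p-values therefore cover the spread between these libraries, which may be technical. The series title describes delivery of melatonin on nano-SiO2, and the interaction asks whether the combined spray differs from its parts added together.

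Melatonin is an indoleamine made by plants from tryptophan, and sprayed melatonin has been studied for its relation to stress tolerance and reactive oxygen. Silica particles supply silicon and can carry other molecules on their surface. Many of the genes below handle iron, copper and zinc. Ferritins store iron inside plastids, and plants usually lower their transcripts when iron is scarce. Superoxide dismutases remove superoxide with iron or with copper and zinc at the active site, and in Arabidopsis the iron form and the copper/zinc forms replace each other as the copper supply changes.

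Libraries differed in ways that the groups do not explain. The first principal component of the tested genes held 32.9% of the variance and the second 19.1%, and nano-SiO2+MT 3, nano-SiO2 2, MT 3 and control 1 each lay farthest from the other libraries of their group on these components. Summed FPKM ran from 522120 to 559092 per library, and relative depth, read from the steps between low values, ran from 0.847 to 1.27 of the mean. Absolute depth is unknown. The leaf label was met by 5 genes of the RuBisCO small chain, which summed to between 12587 and 47612 FPKM per library. Without control 1 and nano-SiO2 2 together, 73 genes were called, and 72 of them were among the 148. Leaving out each library in turn gave between 89 calls (without control 2) and 213 calls (without nano-SiO2+MT 3), and 84 of the 148 genes were called in all 12 of these fits. Unless the text says otherwise, each gene given with its library values belongs to these 84. In leaf homogenates, fewer cells of a type and less RNA per cell cannot be told apart.

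Most of the 148 genes lay on the same side of control under each single spray and closer to control under the combined spray. Of the 148, 30 were called against control under nano-SiO2+MT, 73 under nano-SiO2 and 116 under MT, where 1.37%, 0.492% and 3.35% of all tested genes were called. Both single effects had the same sign in 140 of the 148 genes (94.6%), against 56.4% of all tested genes. Under nano-SiO2+MT, 115 genes (77.7%) lay closer to control than under either single spray, against 34.8% of all tested genes. For the 114 negative genes the median log2 change from control was 0.24 under nano-SiO2+MT, 0.84 under nano-SiO2 and 1.16 under MT. For the 34 positive genes it was -0.42 under nano-SiO2+MT, -0.92 under nano-SiO2 and -1.19 under MT. Over all tested genes the same medians were -0.05, 0.10 and -0.05, and the median interaction was -0.10, so a gene with no interaction of its own sits slightly below 0. After median-ratio scaling of the libraries the median interaction was 0.00. The control libraries enter the interaction and every change from control, so these shares describe the called genes and test nothing.

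**Figure D1:**
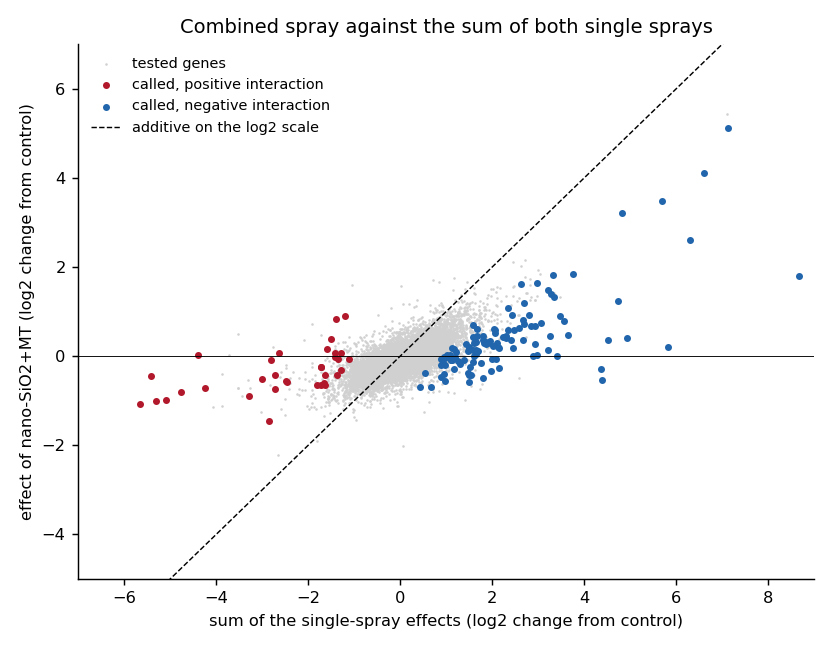
Log2 change from control under nano-SiO2+MT (vertical axis) against the sum of the changes under nano-SiO2 and under MT (horizontal axis), on FPKM + 1, for 28260 tested genes in grey, with the 34 genes called positive in red and the 114 called negative in blue. Genes on the dashed line would be additive; the negative genes lie below it on the right and the positive genes above it on the left, most of them near the horizontal line of no change from control.

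The group with the highest mean was MT in 78 of the negative genes and nano-SiO2 in 36, and neither nano-SiO2+MT nor control was highest in any of the 114. The lowest mean was control in 74 and nano-SiO2+MT in 36. Among the positive genes the lowest mean was MT in 23 and nano-SiO2 in 11. These ranks follow in large part from the sign of the interaction, so they describe the called genes and test nothing. Of the called genes, 12 reached 1 FPKM only in MT libraries and passed the filter through them. The sizes of the 148 interactions ran from 0.887 to 6.86 with a median of 1.67, and 47 reached 2. In FPKM without the log transform, the interaction of group means had the same sign in 148 of 148 genes.

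Shapes were named from the 3 changes from control, counting a change from a size of 0.5. A cancelled gene moved under at least 1 single spray and did not move under the combined spray. This was the shape of 92 genes (62.2%), 17 positive and 75 negative, against 7.30% of all tested genes. A capped gene moved the same way under all 3 sprays, but under the combined spray by less than the single effects added together. There were 46 capped genes (31.1%, against 1.05% of all tested genes), of which 15 were positive and 31 negative. In 6 genes the response turned, with the mean of the combined spray on the other side of control from the single sprays. That change from control was called in only some of the 6. In 2 genes the response was reduced. In 1 gene the change appeared only in the combination, in 1 no change reached 0.5, and none of the 148 was opposed (single effects in opposite directions) or amplified. When 0.25 counted as a change, 50 of the 148 were cancelled.

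**Figure D2:**
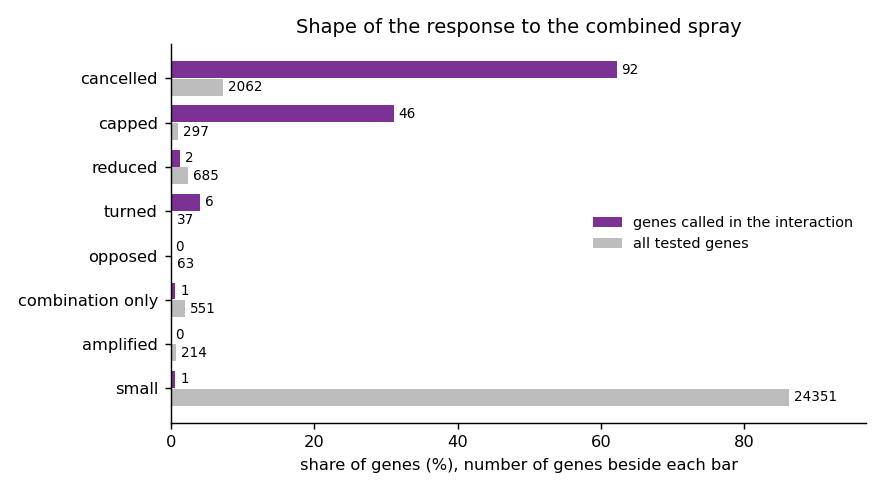
Share of genes with each shape of response (horizontal axis, %), in purple for the 148 genes called in the interaction and in grey for all 28260 tested genes, with the number of genes beside each bar. Cancelled (92) and capped (46) genes make up most of the called genes, while 24351 of the tested genes moved under none of the sprays.

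On the log2 scale the added effects of strongly raised genes reach levels that no library showed. In 99 of the 114 negative genes the level predicted for nano-SiO2+MT by adding the single effects was above the highest of the 12 libraries. At the other end, FPKM cannot fall below 0, and in 11 of the 34 positive genes the added effects put the combined level below 0. An additive response could not have been measured in these 11. Of the 148 genes, 16 (10.8%, against 0.166% of all tested genes) reached 1 FPKM in the libraries of 1 group only, in 12 of them MT, and passed the filter through that group, so they had to differ between groups to be tested at all. Of the 23 positive genes predicted at or above 0, 10 were called in all 12 fits with a library left out.

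The list of ferritins and iron handling held the most positive calls of any list. Of 9 tested genes with ferritin in their description, 1 of them a ferritin-like diiron protein, 5 were called, all positive. Of all tested genes 0.12% were called positive. Ferritin-2 (Glyma.01G124500) had 44.3, 48.5 and 43.8 FPKM in the nano-SiO2+MT libraries, 16.1, 14.6 and 20.0 in the nano-SiO2 libraries, 8.24, 11.6 and 9.74 in the MT libraries and 108, 87.7 and 96.2 in the control libraries. The 4 groups did not overlap, and the combined spray lay between the single sprays and control. Over all tested genes, the nano-SiO2+MT libraries did not overlap those of nano-SiO2 in 23.0%, of MT in 9.57% and of control in 19.4%. Lack of overlap is thus common, and here and below it describes a gene and tests nothing. Adding the single effects would have put it at 0.948 FPKM, against a measured mean of 45.6 ± 2.61 (SD, n = 3 libraries). Its interaction was 4.58 (SE 0.21, limma adjusted p = 1.75e-07), and over the fits with a library left out it ran from 4.47 to 4.70.

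The second ferritin-2 gene (Glyma.03G050100) had 30.6, 29.1 and 36.4 FPKM under nano-SiO2+MT, 11.0, 8.85 and 14.9 under nano-SiO2, 8.21, 7.54 and 7.99 under MT and 63.8, 64.0 and 67.6 in control. Ferritin-1 (Glyma.18G205800) had 33.9, 40.6 and 30.7 FPKM under nano-SiO2+MT, 13.9, 16.1 and 14.4 under nano-SiO2, 6.49, 8.68 and 10.8 under MT and 79.7, 58.5 and 75.2 in control. Its relative Glyma.07G155200 had 22.2, 25.6 and 30.3 FPKM under nano-SiO2+MT, 10.5, 10.4 and 13.1 under nano-SiO2, 4.45, 7.03 and 5.81 under MT and 49.7, 44.1 and 45.1 in control. In all of them control was highest, MT lowest, and the groups did not overlap. The interactions were 4.31, 4.10 and 3.95 (SE 0.22, 0.25 and 0.23). MT lowered these genes in plants without nano-SiO2 and raised them in plants that also received nano-SiO2: the MT effect on Glyma.03G050100 was 1.42 with nano-SiO2 and -2.89 without it, both called. Over all tested genes 1.53% were called for MT with nano-SiO2 present and 3.35% for MT without it.

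Ferritin-4 (Glyma.14G056800) had 4.17, 3.53 and 3.36 FPKM under nano-SiO2+MT, 2.49, 2.86 and 1.80 under nano-SiO2, 1.89, 2.02 and 1.51 under MT and 5.21, 4.30 and 4.28 in control. Its combined mean lay 0.26 below control on the log2 scale, so it was cancelled, with an interaction of 1.47 (SE 0.20, limma adjusted p = 0.00369). A further ferritin gene (Glyma.02G262500) had an interaction of 1.09 and was not called (adjusted p = 0.203). Ferritin genes are close copies, and the division of reads shared between them is not stated.

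Single transporters of iron were also called positive, but not their families as a whole. The list of ferritins and iron handling held 36 tested genes. Of these, 7 (19.4%) were called positive, against 0.12% of all tested genes, and 0 negative. Its median interaction was -0.15, against -0.10 over all tested genes. The gene described as ferrous ion membrane transport protein DMT1 (Glyma.17G165200) lay outside this list and was called negative (interaction -2.95). Of 10 tested YSL genes 1 was called, against 0.524% of all tested genes. A vacuolar iron transporter homolog (Glyma.16G168200), of a family that loads iron into the vacuole, had 8.64, 9.45 and 10.9 FPKM under nano-SiO2+MT, 7.55, 6.26 and 7.20 under nano-SiO2, 3.90, 4.46 and 4.95 under MT and 9.84, 9.71 and 9.65 in control. MT was lowest, nano-SiO2 also lay below control, and the combined spray overlapped it (interaction 1.40, SE 0.17). YSL1 (Glyma.20G217400), which carries metals bound to nicotianamine, averaged 24.1 ± 2.22 FPKM under nano-SiO2+MT, 21.5 ± 0.495 under nano-SiO2, 16.6 ± 2.19 under MT and 30.2 ± 3.16 in control (interaction 0.98, limma adjusted p = 0.0287). It was called in 2 of the 12 fits with a library left out, with an adjusted p of 0.102 without control 2. A second YSL1 gene (Glyma.10G172900), just outside the threshold, had an interaction of 0.91 (limma adjusted p = 0.0519).

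Iron superoxide dismutase moved opposite to the ferritins. The chloroplast gene Glyma.20G196900 had the largest interaction of all tested genes, -6.86 (SE 0.29, limma adjusted p = 1.48e-07). Its libraries read 5.27, 2.52 and 4.68 FPKM under nano-SiO2+MT, 26.0, 20.7 and 24.6 under nano-SiO2, 33.4, 26.0 and 40.3 under MT and 0.535, 0.301 and 0.473 in control. The single sprays overlapped each other, while the combined spray lay below them and above control. Added single effects would have put it at 579 FPKM, against a measured mean of 4.16 ± 1.44. Glyma.10G193500, a second iron superoxide dismutase, had 0.459, 0.0797 and 0.629 FPKM under nano-SiO2+MT, 4.35, 3.01 and 5.40 under nano-SiO2, 5.22, 4.77 and 6.16 under MT and 0, 0.0690 and 0.0609 in control, with an interaction of -4.52 (SE 0.26). In both genes MT raised the level without nano-SiO2 and lowered it with nano-SiO2. The other 3 of 5 tested iron superoxide dismutase genes had interactions of 0.02, 0.14 and 0.20 and were not called. This list was drawn up after the values were seen, and 40.0% of it was called negative, against 0.403% of all tested genes.

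The copper chaperone that loads copper/zinc superoxide dismutase (Glyma.05G055000) had 42.6, 39.2 and 46.6 FPKM under nano-SiO2+MT, 33.2, 31.6 and 32.2 under nano-SiO2, 14.3, 11.6 and 18.7 under MT and 55.0, 61.3 and 56.9 in control. No groups overlapped, and MT alone was lowest. With nano-SiO2 present the MT effect was 0.39 and was not called (adjusted p = 0.2), and without it the effect was -1.91, which gave an interaction of 2.30 (SE 0.21, limma adjusted p = 0.000103).

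A copper/zinc superoxide dismutase (Glyma.11G192700) likewise had its lowest levels under MT, with 185, 220.1 and 153 FPKM under nano-SiO2+MT, 148, 168 and 142 under nano-SiO2, 75.3, 88.0 and 62.3 under MT and 233, 163 and 140.0 in control. The MT libraries lay below all others, which overlapped. Its call (interaction 1.49, limma adjusted p = 0.0339) was kept in 3 of the 12 fits with a library left out, with an adjusted p of 0.093 without nano-SiO2+MT 2. Glyma.03G242900, described only as superoxide dismutase, averaged 86.3 ± 0.811 FPKM under nano-SiO2+MT, 88.9 ± 19.2 under nano-SiO2, 36.8 ± 9.54 under MT and 103 ± 4.21 in control (interaction 1.47, limma adjusted p = 0.0172, called in 6 of the 12 fits, and 0.059 without control 2). The list of copper/zinc superoxide dismutases and their chaperone was drawn up after the values were seen. Of its 9 genes 2 were called, both positive (22.2%, against 0.12% of all tested genes), and the median interaction was 0.30.

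**Figure D3:**
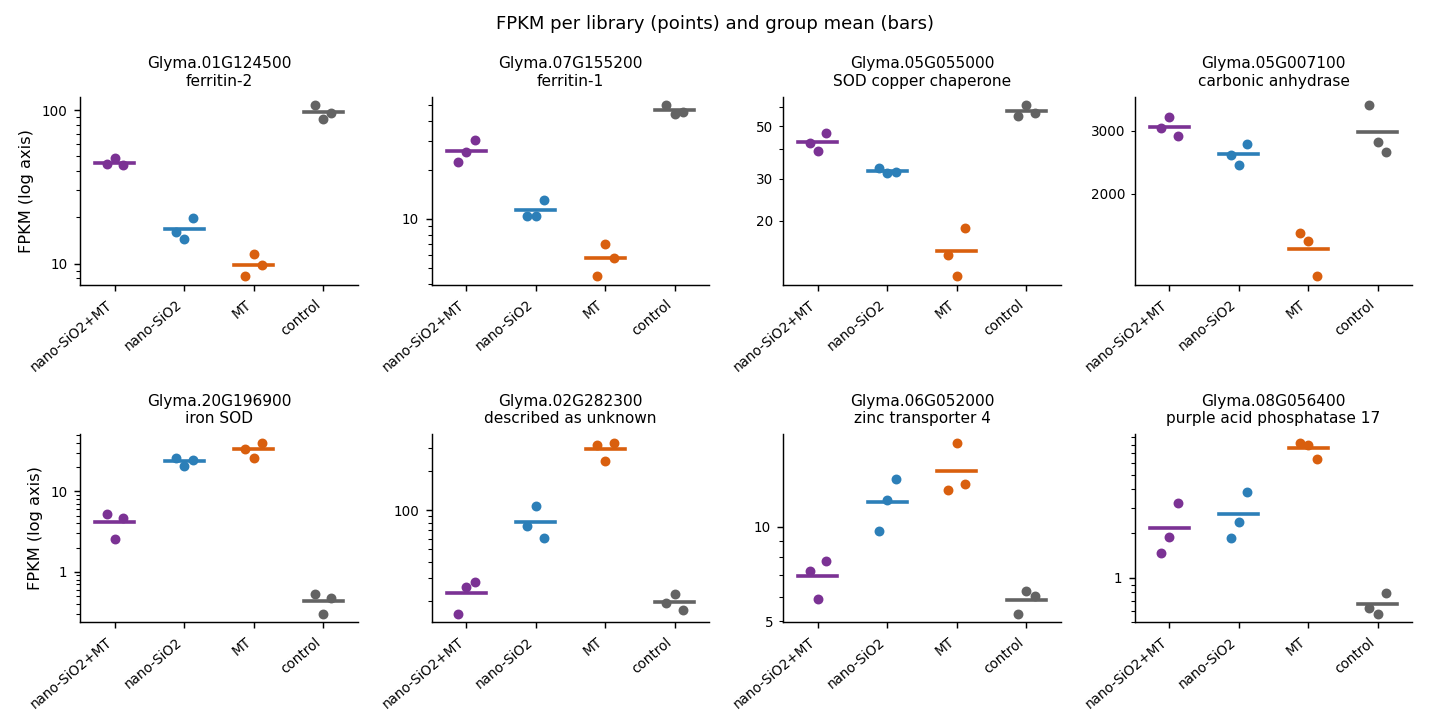
FPKM per library (points, log axis) and group mean (short lines) for 8 genes, with the groups nano-SiO2+MT, nano-SiO2, MT and control from left to right; vertical scales differ between panels. In the upper panels (positive interactions) the mean of MT is lowest and the combined spray stands above it; in the lower panels (negative interactions) the mean of MT is highest and the combined spray lies below it.

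The called genes of metal transporter families had mostly negative interactions. Of 50 tested genes of the ZIP, Nramp, YSL and VIT families, 7 were called negative and 2 positive. The list was made after the values were seen. Its called share was 18.0%, against 0.524% of all tested genes, and its median interaction was -0.29, against -0.10 over all tested genes. Of the 7 negative genes, 2 zinc transporters described below reached 1 FPKM only in MT libraries. They passed the filter through the group where they were high, so they had to differ between groups to be tested. The gene described as ferrous ion membrane transport protein DMT1 and as metal transporter Nramp3 (Glyma.17G165200) had 0.256, 0.431 and 0.473 FPKM under nano-SiO2+MT, 1.11, 2.06 and 2.62 under nano-SiO2, 4.92, 3.94 and 3.54 under MT and 0.246, 0.441 and 0.416 in control. The combined spray overlapped control, and both single sprays lay above it (interaction -2.95, SE 0.26, limma adjusted p = 8.44e-05). Nramp6 (Glyma.15G003500), of a family of divalent metal transporters, averaged 6.29 ± 2.22 FPKM under nano-SiO2+MT, 10.1 ± 2.43 under nano-SiO2, 9.95 ± 1.33 under MT and 3.31 ± 0.365 in control (interaction -1.97, SE 0.29).

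Nramp2a (Glyma.05G101700) turned. It had 3.82, 4.31 and 4.13 FPKM under nano-SiO2+MT, 7.98, 8.12 and 8.04 under nano-SiO2, 12.3, 9.83 and 11.4 under MT and 6.72, 6.56 and 6.09 in control. No groups overlapped: each single spray was above control and the combined spray below it (interaction -1.53, SE 0.15, limma adjusted p = 0.000302). The change from control under the combined spray was -0.55 and was called; of all tested genes 1.37% were called there, 0.729% higher and 0.637% lower.

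Of 17 tested genes described as zinc transporters, 4 were called, all negative, against 0.403% of all tested genes. But 2 of these (Glyma.13G004400 and Glyma.20G063100) reached 1 FPKM only in MT libraries and so passed the filter through the group where they were high. Zinc transporter 4 (Glyma.06G052000) had 7.25, 5.87 and 7.77 FPKM under nano-SiO2+MT, 9.70, 12.1 and 14.2 under nano-SiO2, 13.1, 18.5 and 13.6 under MT and 5.29, 6.26 and 6.04 in control, and the combined spray overlapped only control (interaction -1.91, SE 0.23). Zinc transporter 8 (Glyma.13G004400) was raised by MT alone, with 0.0155, 0.0240 and 0 FPKM under nano-SiO2+MT, 0.0515, 0.0934 and 0.215 under nano-SiO2, 2.55, 1.83 and 1.19 under MT and 0, 0.0609 and 0 in control. ZIP1 (Glyma.20G063100) had the same pattern, with means of 0.271 FPKM under nano-SiO2+MT, 0.232 under nano-SiO2, 1.74 under MT and 0.258 in control. It was called in 7 of the 12 fits (limma adjusted p = 0.0669 without MT 1). Zinc transporter 11 (Glyma.08G328000) was raised by each single spray, with means of 0.340 FPKM under nano-SiO2+MT, 1.48 under nano-SiO2, 0.895 under MT and 0.117 in control.

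Sulfur assimilation gave 6 negative genes of 66 tested (9.09%, against 0.403% of all tested genes) and 0 positive, in a list drawn up after the values were seen. The median interaction of the list was -0.32, against -0.10 over all tested genes. Cystathionine beta-lyase (Glyma.03G129700), an enzyme on the way to methionine, had 8.92, 8.22 and 9.07 FPKM under nano-SiO2+MT, 14.8, 19.0 and 15.6 under nano-SiO2, 14.3, 15.8 and 18.1 under MT and 10.3, 8.76 and 11.0 in control. The single sprays overlapped each other above the combined spray and control, which also overlapped (interaction -1.47, SE 0.19). MT raised it without nano-SiO2 and lowered it with nano-SiO2. Homocysteine S-methyltransferase 1 (Glyma.08G261200), which makes methionine, averaged 1.23 ± 0.205 FPKM under nano-SiO2+MT, 1.96 ± 0.288 under nano-SiO2, 3.18 ± 0.148 under MT and 1.04 ± 0.0941 in control (interaction -1.45).

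Of 8 tested genes of 5'-adenylylsulfate reductase, the enzyme that reduces activated sulfate, 2 were called, against 0.524% of all tested genes. Glyma.07G261500 had 6.72, 6.43 and 6.03 FPKM under nano-SiO2+MT, 9.18, 9.19 and 8.68 under nano-SiO2, 11.6, 11.5 and 13.3 under MT and 7.16, 6.91 and 8.36 in control (interaction -1.07, SE 0.16). The single sprays stood above the combined spray and control without overlap. The more abundant copy Glyma.15G108700 averaged 106 ± 10.1 FPKM under nano-SiO2+MT, 137 ± 9.41 under nano-SiO2, 162 ± 3.82 under MT and 105 ± 4.95 in control (interaction -0.99, called in 11 of the 12 fits, limma adjusted p = 0.0641 without control 2). RESPONSE TO LOW SULFUR 3 (Glyma.04G225500), a marker of sulfur shortage in Arabidopsis, averaged 30.4 ± 2.17 FPKM under nano-SiO2+MT, 31.4 ± 5.12 under nano-SiO2, 51.7 ± 10.9 under MT and 22.0 ± 1.45 in control. Its interaction was -1.21 (limma adjusted p = 0.0339) and the call was kept in 3 of the 12 fits, with 0.102 without control 2. Gamma-glutamylcyclotransferase 2-1 (Glyma.04G077300), which breaks down glutathione, had an interaction of -1.18, kept in 1 of the 12 fits (limma adjusted p = 0.126 without control 2).

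Phosphate supply gave 3 negative genes of 58 tested (5.17%, against 0.403% of all tested genes) and 0 positive. The median of the list was -0.25, against -0.10 over all tested genes. In all 3 the combined spray stood at about the level of nano-SiO2 alone and MT was highest. Purple acid phosphatase 17 (Glyma.08G056400), which frees phosphate from organic compounds, had 1.47, 1.88 and 3.23 FPKM under nano-SiO2+MT, 1.86, 2.38 and 3.84 under nano-SiO2, 8.28, 7.94 and 6.44 under MT and 0.621, 0.570 and 0.794 in control (interaction -2.57, SE 0.30, limma adjusted p = 0.000995). The glycerophosphodiester phosphodiesterase GDPD1 (Glyma.16G052000), which acts on products of membrane lipid breakdown, had 4.57, 3.28 and 5.06 FPKM under nano-SiO2+MT, 4.83, 4.42 and 5.49 under nano-SiO2, 8.85, 8.35 and 8.97 under MT and 1.92, 1.79 and 2.33 in control (interaction -1.86). With nano-SiO2 present the MT effects on these genes were -0.21 and -0.17 and were not called.

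A putative glycerol-3-phosphate transporter (Glyma.12G013200) averaged 7.44 ± 0.387 FPKM under nano-SiO2+MT, 7.36 ± 1.30 under nano-SiO2, 11.9 ± 0.825 under MT and 3.45 ± 0.107 in control (interaction -1.51). The acid phosphatase ACP1 (Glyma.08G195100), outside the list, averaged 3.92 ± 1.20 FPKM under nano-SiO2+MT, 6.32 ± 1.04 under nano-SiO2, 8.53 ± 1.14 under MT and 1.89 ± 0.367 in control (interaction -2.32).

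Several storage and nitrogen genes stayed well above control in the combined spray. Vegetative storage proteins hold nitrogen in soybean leaves. Glyma.07G014500, described as stem 31 kDa glycoprotein, had 111, 139 and 98.7 FPKM under nano-SiO2+MT, 179, 109 and 156 under nano-SiO2, 31.5, 21.9 and 34.5 under MT and 4.87, 5.86 and 6.50 in control. The combined spray overlapped nano-SiO2 alone, and MT lay between them and control (interaction -2.48, SE 0.30, limma adjusted p = 0.00105). Glyma.08G200100, of the same description, had 8.71, 13.9 and 14.1 FPKM under nano-SiO2+MT, 20.2, 19.6 and 15.5 under nano-SiO2, 2.21, 1.53 and 4.64 under MT and 0.124, 0.180 and 0.173 in control (interaction -2.20, SE 0.36). Both of the 2 tested genes of the list were called, against 0.524% of all tested genes, in a list chosen with earlier results of these data known.

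A ruBisCO-associated protein (Glyma.01G142400), a soybean leaf protein related to chitinases, had 48.1, 30.2 and 42.0 FPKM under nano-SiO2+MT, 115, 122 and 85.1 under nano-SiO2, 36.7, 28.1 and 30.8 under MT and 4.43, 6.38 and 6.38 in control. The combined spray overlapped MT here, and nano-SiO2 alone was highest. The MT effect was -1.41 where nano-SiO2 was present and 2.29 where it was not, both called (interaction -3.70, SE 0.28, limma adjusted p = 1.59e-05).

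Asparagine synthetases make the amide in which legumes carry nitrogen, and 2 of 6 tested genes were called, against 0.524% of all tested genes. The asparagine synthetase-like gene Glyma.02G228100 had 61.1, 57.9 and 94.1 FPKM under nano-SiO2+MT, 3.02, 2.74 and 5.75 under nano-SiO2, 133, 129 and 106 under MT and 0.997, 1.30 and 0.810 in control. MT raised it with and without nano-SiO2, by 3.91 and by 5.93 (interaction -2.01, SE 0.32, limma adjusted p = 0.0115). Glyma.11G171400 had 2.38, 1.69 and 3.91 FPKM under nano-SiO2+MT, 0, 0 and 0.0212 under nano-SiO2, 8.53, 8.72 and 9.97 under MT and 0, 0.0134 and 0 in control. Nano-SiO2 alone overlapped control, and where MT was present the nano-SiO2 effect was -1.50, which was called (interaction -1.51, SE 0.25).

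An asparaginase, which releases the nitrogen again (Glyma.17G238200), had the opposite sign, with means of 4.83 ± 0.900 FPKM under nano-SiO2+MT, 4.21 ± 0.276 under nano-SiO2, 3.63 ± 0.804 under MT and 8.17 ± 0.919 in control. Its interaction of 1.15 (limma adjusted p = 0.0344) was called in 3 of the 12 fits (0.107 without control 2). Over the list of nitrogen uptake and assimilation, 1 gene was called positive and 2 negative of 112 tested (2.68%, against 0.524% of all tested genes, median -0.23). Non-symbiotic hemoglobin 1 (Glyma.11G121800), which scavenges nitric oxide, averaged 9.08 ± 1.72 FPKM under nano-SiO2+MT, 4.51 ± 0.757 under nano-SiO2, 13.8 ± 1.59 under MT and 2.21 ± 0.246 in control (interaction -1.33, SE 0.21). Hydroxyisourate hydrolase (Glyma.02G018700), of the ureide pathway, averaged 9.78 ± 2.04 FPKM under nano-SiO2+MT, 13.8 ± 1.39 under nano-SiO2, 9.76 ± 0.606 under MT and 3.08 ± 0.410 in control (interaction -1.88).

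**Figure D4:**
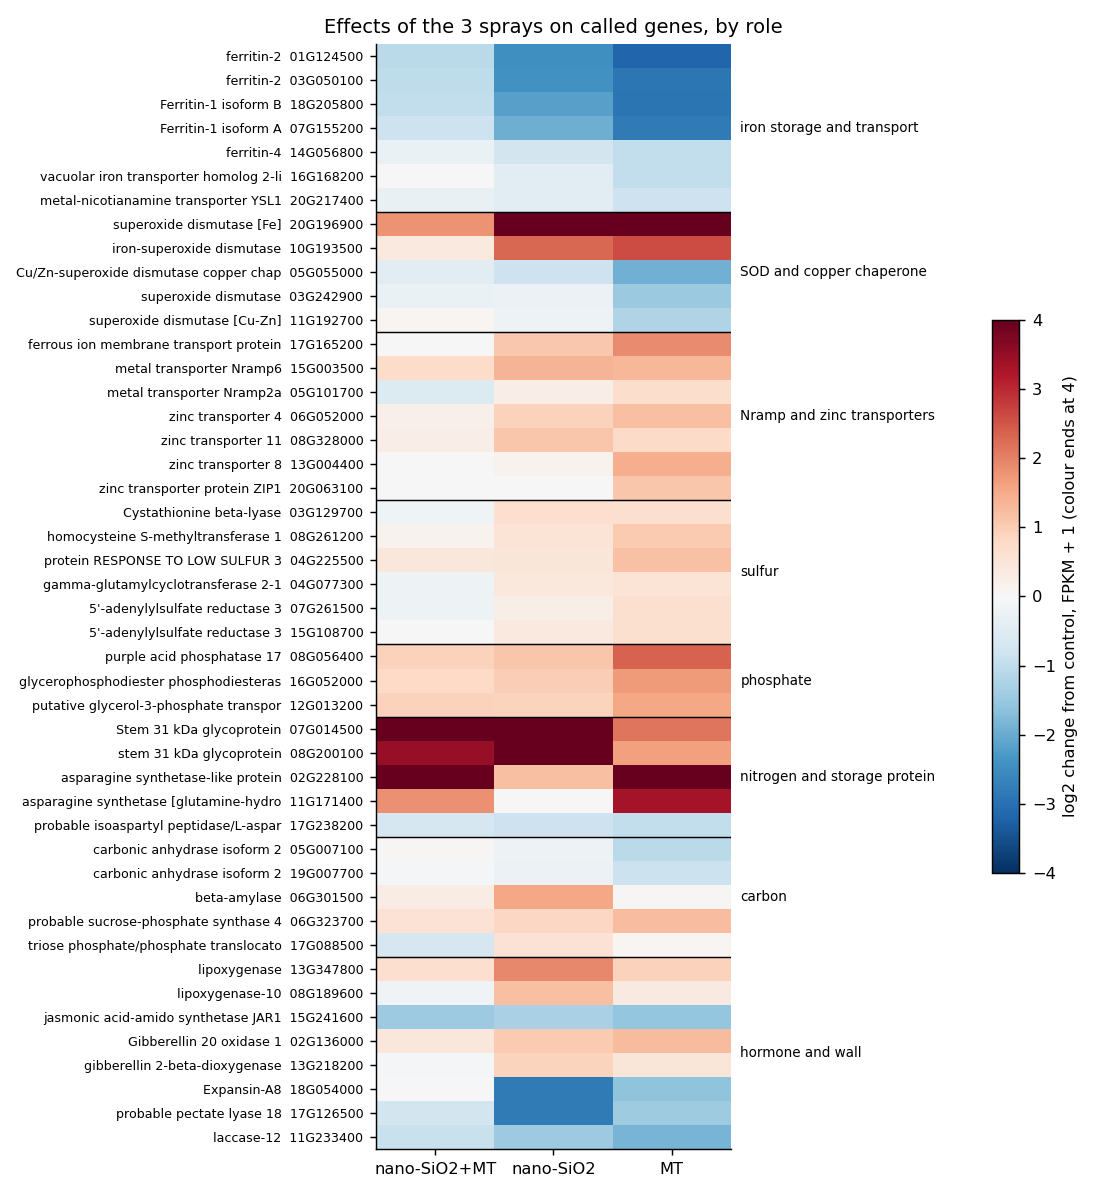
Log2 change from control on FPKM + 1 (colour, blue lower and red higher, colour ending at 4) under nano-SiO2+MT, nano-SiO2 and MT (columns, left to right) for 46 called genes (rows), arranged by role with descriptions and identifiers shortened. The left column is paler than the other columns in most rows; the storage proteins and the asparagine synthetases keep strong colour in it.

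Carbonic anhydrases, beta-amylase and a sucrose-phosphate synthase were among the called genes of carbon metabolism. Carbonic anhydrase interconverts carbon dioxide and bicarbonate in the chloroplast. In a list made after the values were seen, 2 of 16 tested genes were called, both positive (12.5%, against 0.12% of all tested genes). Glyma.05G007100 had 3049, 3281 and 2903 FPKM under nano-SiO2+MT, 2562, 2412 and 2751 under nano-SiO2, 1552, 1471 and 1175 under MT and 3537, 2789 and 2612 in control. Only the MT libraries stood apart from control, below all others. With nano-SiO2 present the MT effect was 0.26, which was not called, and without it -1.09 (interaction 1.34, SE 0.22, limma adjusted p = 0.0115). Glyma.19G007700 averaged 3614 ± 222 FPKM under nano-SiO2+MT, 3174 ± 152 under nano-SiO2, 2072 ± 259.8 under MT and 3776 ± 486 in control, and its call (interaction 1.05, limma adjusted p = 0.0358) was kept in 2 of the 12 fits (0.118 without nano-SiO2+MT 1). These copies may share reads.

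Beta-amylase (Glyma.06G301500), which releases maltose from starch, was raised by nano-SiO2 alone (0.492% of all tested genes were called there). It had 29.3, 35.8 and 30.9 FPKM under nano-SiO2+MT, 75.9, 64.5 and 94.3 under nano-SiO2, 31.7, 25.2 and 24.0 under MT and 22.7, 29.3 and 25.9 in control (interaction -1.30, SE 0.23, limma adjusted p = 0.0209). The call was kept in 7 of the 12 fits and the highest adjusted p was 0.0753, without nano-SiO2+MT 1. Sucrose-phosphate synthase 4 (Glyma.06G323700), an enzyme of sucrose synthesis, averaged 20.2 ± 4.53 FPKM under nano-SiO2+MT, 24.0 ± 1.97 under nano-SiO2, 32.2 ± 4.56 under MT and 13.2 ± 2.55 in control (interaction -1.49, kept in 10 of the 12 fits, limma adjusted p = 0.0524 without MT 1).

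The triose phosphate/phosphate translocator of non-green plastids (Glyma.17G088500) turned, with 5.20, 3.51 and 4.61 FPKM under nano-SiO2+MT, 12.8, 12.7 and 10.8 under nano-SiO2, 7.32, 7.72 and 9.69 under MT and 7.26, 7.58 and 8.20 in control. The combined spray was below every other library and nano-SiO2 alone above every other (interaction -1.36, SE 0.20). In photorespiration 1 gene of 33 was called (3.03%, against 0.524% of all tested genes). It was serine hydroxymethyltransferase 7 (Glyma.04G254300), with an interaction of -0.97 that held in 1 of the 12 fits (limma adjusted p = 0.143 without control 2).

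The 4 lists of photosynthesis genes held no called gene. Of 28 tested light-harvesting antenna genes 0 were called, 25 had an interaction above 0, and the median was 0.28. Of all 28260 tested genes 9718 had an interaction above 0. Over all tested genes 0.524% were called, a share at which lists of this size may hold none. The 56 tested genes of photosystems and electron transport, the 39 of the Calvin cycle and the 40 of chlorophyll synthesis had 0 called each, with medians of 0.19, 0.01 and 0.20. All of these medians stand against -0.10 over all tested genes. Outside the lists, a thylakoid lumenal 29 kDa protein (Glyma.02G209000, named after its value was seen) was called with an interaction of 0.96 (limma adjusted p = 0.0456), a call kept in none of the 12 fits with a library left out.

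Jasmonate, gibberellin and ethylene genes were each represented by a few members. Of 54 tested genes of jasmonate synthesis and JAZ repressors, 1 was called positive and 2 negative (5.56%, against 0.524% of all tested genes). The median of the list was -0.33, against -0.10 over all tested genes. A lipoxygenase (Glyma.13G347800), which oxidises polyunsaturated fatty acids, had 2.05, 1.27 and 1.95 FPKM under nano-SiO2+MT, 5.77, 4.74 and 5.97 under nano-SiO2, 2.23, 1.45 and 3.15 under MT and 0.246, 1.14 and 0.863 in control. The combined spray overlapped MT, and nano-SiO2 alone was highest (interaction -2.15, SE 0.32, limma adjusted p = 0.00572). Lipoxygenase-10 (Glyma.08G189600) had 0.291, 0.426 and 0.577 FPKM under nano-SiO2+MT, 2.77, 3.17 and 2.14 under nano-SiO2, 1.24, 0.564 and 1.38 under MT and 0.310, 0.650 and 0.820 in control (interaction -1.72).

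The gene described as JAR1 (Glyma.15G241600), whose Arabidopsis namesake joins jasmonic acid to isoleucine, had 0, 0.163 and 0.0674 FPKM under nano-SiO2+MT, 0.328, 0.201 and 0.123 under nano-SiO2, 0, 0 and 0.0283 under MT and 1.75, 1.96 and 2.24 in control. All sprayed libraries were near 0, and the positive interaction of 1.38 is 1 of the 11 in which the added effects fall below 0 FPKM. This gene reached 1 FPKM only in control libraries and passed the filter through them.

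Gibberellin 20 oxidase 1 (Glyma.02G136000), an enzyme of gibberellin synthesis, had 3.00, 3.22 and 3.49 FPKM under nano-SiO2+MT, 4.76, 4.93 and 6.64 under nano-SiO2, 6.25, 6.02 and 6.90 under MT and 2.30, 2.18 and 1.84 in control. The single sprays overlapped each other, above the combined spray, which lay above control (interaction -1.85, SE 0.19). A gibberellin 2-beta-dioxygenase (Glyma.13G218200), of the family that inactivates gibberellins, averaged 1.33 ± 0.284 FPKM under nano-SiO2+MT, 3.60 ± 0.669 under nano-SiO2, 2.49 ± 0.659 under MT and 1.46 ± 0.110 in control (interaction -1.46). Of the 82 tested genes of cytokinin and gibberellin these were the only calls (2.44%, against 0.524% of all tested genes), and the median interaction was -0.03.

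Among 103 tested genes of ethylene synthesis and ERF factors, 3 were called, all negative (2.91%, against 0.403% of all tested genes). Both tested genes described as the transcription factor ERF017 were among them, but each reached 1 FPKM only in MT libraries, through which it passed the filter, so their number supports nothing. Glyma.09G072000 had 0, 0.0328 and 0.0326 FPKM under nano-SiO2+MT, 0, 0.676 and 0.0450 under nano-SiO2, 2.27, 2.47 and 3.73 under MT and 0, 0 and 0.234 in control. Glyma.15G180000 had 0.0930, 0.0664 and 0.117 FPKM under nano-SiO2+MT, 0.212, 0.404 and 0.114 under nano-SiO2, 2.66, 1.55 and 2.64 under MT and 0.341, 0.144 and 0.565 in control. In both genes only MT alone stood apart (interactions -2.05 and -1.46). The call of Glyma.15G180000 was kept in 8 of the 12 fits (limma adjusted p = 0.0641 without control 2).

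Wall genes gave large positive interactions that rested on uneven libraries. Expansin-A8 (Glyma.18G054000), of a family that loosens growing walls, had 10.3, 52.4 and 5.45 FPKM under nano-SiO2+MT, 1.00, 1.37 and 1.28 under nano-SiO2, 4.08, 2.15 and 7.53 under MT and 16.2, 13.6 and 14.0 in control. A probable pectate lyase (Glyma.17G126500), which cuts pectin, had 8.77, 21.6 and 2.84 FPKM under nano-SiO2+MT, 1.50, 0.929 and 1.27 under nano-SiO2, 5.94, 3.23 and 5.76 under MT and 13.0, 15.3 and 16.0 in control. Laccase-12 (Glyma.11G233400), of the family that polymerises lignin, had 2.22, 5.96 and 1.30 FPKM under nano-SiO2+MT, 1.55, 1.37 and 1.73 under nano-SiO2, 0.746, 0.947 and 1.13 under MT and 6.17, 6.26 and 5.49 in control. In all 3 genes nano-SiO2+MT 2 was several times as high as nano-SiO2+MT 3, and the control libraries were even.

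Their interactions were 4.42 (SE 0.82), 3.52 (SE 0.65) and 2.40 (SE 0.41), with limma adjusted p = 0.0366, 0.0344 and 0.0172. The calls were kept in 2, 2 and 6 of the 12 fits, with adjusted p of 0.097 without control 1, 0.102 without nano-SiO2 2 and 0.0651 without nano-SiO2 2. Their added single effects fall below 0 FPKM. The summed level of 51 xylem and secondary wall genes, 0 of them at 0 in every library, ran from 61.3 to 175 FPKM under nano-SiO2+MT, 156 to 352 under nano-SiO2, 52.8 to 73.0 under MT and 118 to 195 in control. Its part in these results was not tested. Of 94 tested expansin and wall loosening genes 2 were called (2.13%, against 0.524% of all tested genes), with a median of 0.10.

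Of 76 tested flavonoid and isoflavonoid genes 1 was called in each direction (2.63%, against 0.524% of all tested genes, median -0.09). An isoflavone reductase homolog (Glyma.04G012300), of a family that makes isoflavonoid defence compounds, had 17.3, 22.2 and 27.8 FPKM under nano-SiO2+MT, 47.6, 50.2 and 86.5 under nano-SiO2, 39.5, 42.8 and 53.4 under MT and 25.4, 31.4 and 33.6 in control. Both single sprays lay above the combined spray and control, which overlapped (interaction -1.95, SE 0.32, limma adjusted p = 0.0138). Chalcone synthase 2 (Glyma.06G118550), the entry enzyme of the pathway, averaged 29.5 ± 4.65 FPKM under nano-SiO2+MT, 27.9 ± 2.90 under nano-SiO2, 22.6 ± 3.04 under MT and 46.4 ± 3.16 in control. The log2 changes from control were -0.65 under nano-SiO2+MT, -0.72 under nano-SiO2 and -1.01 under MT, and the interaction of 1.08 was kept in 4 of the 12 fits (limma adjusted p = 0.107 without control 2).

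A Kunitz family protease inhibitor (Glyma.16G211700) averaged 5.06 ± 1.59 FPKM under nano-SiO2+MT, 17.4 ± 5.68 under nano-SiO2, 7.62 ± 2.64 under MT and 5.65 ± 0.662 in control. Its interaction of -1.92 was kept in 3 of the 12 fits (limma adjusted p = 0.116 without control 2). Non-specific lipid-transfer protein 8 (Glyma.08G161700), of a family that binds lipids outside the cell, averaged 5.87 ± 2.75 FPKM under nano-SiO2+MT, 2.41 ± 1.08 under nano-SiO2, 1.09 ± 0.601 under MT and 5.85 ± 0.326 in control. Its interaction of 2.72 was kept in 8 of the 12 fits (limma adjusted p = 0.0565 without MT 3), and its added effects fall below 0 FPKM. The auxin-induced protein 6B-like gene (Glyma.12G035000) had an interaction of 1.88, kept in 1 of the 12 fits (limma adjusted p = 0.139 without nano-SiO2 2).

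In a few genes the mean of the combined spray lay on the far side of control. That change from control was called in flowering-promoting factor 1 (limma adjusted p = 0.0285). It was not called in senescence-associated nodulin 1A (limma adjusted p = 0.105), Glyma.09G131700 (0.065) or Glyma.14G032000 (0.458). Flowering-promoting factor 1 (Glyma.04G074800), which promotes flowering in Arabidopsis, had 6.27, 4.06 and 4.93 FPKM under nano-SiO2+MT, 1.32, 1.85 and 1.08 under nano-SiO2, 1.07, 0.620 and 0.808 under MT and 2.64, 2.14 and 2.46 in control. The combined spray was above all control libraries and each single spray below them (interaction 2.23, SE 0.23, limma adjusted p = 0.000376). Senescence-associated nodulin 1A (Glyma.07G209100) had 7.53, 5.42 and 7.47 FPKM under nano-SiO2+MT, 16.0, 22.6 and 19.9 under nano-SiO2, 15.1, 17.8 and 21.5 under MT and 11.1, 10.7 and 10.2 in control, the reverse order (interaction -2.09, SE 0.23). Glyma.09G131700, with no function in its description, had 1.45, 1.43 and 3.53 FPKM under nano-SiO2+MT, 0.154, 0 and 0.0365 under nano-SiO2, 0, 0.0902 and 0.115 under MT and 0.681, 0.413 and 0.778 in control (interaction 2.10), and its added effects fall below 0 FPKM. This gene reached 1 FPKM only in nano-SiO2+MT libraries and passed the filter through the group where it was high.

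The single gene that changed only in the combination was Glyma.14G052067, described by likeness to a keratin. It had 11.0, 16.6 and 12.6 FPKM under nano-SiO2+MT, 33.6, 33.9 and 26.9 under nano-SiO2, 20.8, 22.3 and 20.1 under MT and 24.9, 20.2 and 21.3 in control. The combined spray was below all other libraries, but the change under nano-SiO2 of 0.49 was just short of the 0.5 that counts as a move. Its interaction of -1.13 (limma adjusted p = 0.0366) was called in 3 of the 12 fits, with 0.127 without control 2.

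Of the 148 genes 46 (31.1%) had no function in their description, against 30.6% of all tested genes, and several of the largest interactions were among them. Glyma.02G282300 had 15.9, 25.7 and 27.8 FPKM under nano-SiO2+MT, 75.9, 107 and 60.8 under nano-SiO2, 316, 238 and 332 under MT and 19.1, 22.5 and 16.9 in control, and the combined spray overlapped control (interaction -5.62, SE 0.33, limma adjusted p = 1.37e-06). Glyma.14G032000 had 6.06, 16.3 and 14.0 FPKM under nano-SiO2+MT, 46.8, 53.4 and 41.6 under nano-SiO2, 148, 125 and 137 under MT and 13.7, 17.8 and 19.2 in control (interaction -4.93). It was classed as turned, but the combined spray overlapped control. Glyma.05G011200 had 13.1, 16.5 and 12.3 FPKM under nano-SiO2+MT, 26.4, 31.8 and 27.0 under nano-SiO2, 123, 105 and 84.4 under MT and 11.9, 10.7 and 9.22 in control (interaction -4.15). In all 3 genes MT alone was highest by far and nano-SiO2 stood between it and the rest.

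Glyma.17G119000 had 0.0846, 0.462 and 0.120 FPKM under nano-SiO2+MT, 1.64, 2.30 and 5.33 under nano-SiO2, 13.1, 10.0 and 9.94 under MT and 0.737, 0.216 and 0.549 in control (interaction -4.66). Glyma.19G231100 was listed at 0 in all nano-SiO2+MT, nano-SiO2 and control libraries and at 7.10, 9.32 and 13.2 FPKM in the MT libraries (limma adjusted p = 8.66e-06). For this gene the interaction is the MT effect alone, and it passed the filter only through the MT libraries. Glyma.19G098500 came close to it, with 0.567, 0.371 and 0.620 FPKM under nano-SiO2+MT, 0.505, 0.534 and 1.25 under nano-SiO2, 5.54, 6.55 and 5.20 under MT and 0, 0.181 and 0.147 in control (interaction -2.80).

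Glyma.03G223700 was raised by each single spray to overlapping levels, with 2.06, 2.59 and 4.24 FPKM under nano-SiO2+MT, 7.73, 8.77 and 4.99 under nano-SiO2, 5.72, 6.30 and 13.6 under MT and 0.606, 1.03 and 0.362 in control (interaction -3.49). Glyma.06G142900 averaged 15.2 ± 2.50 FPKM under nano-SiO2+MT, 30.0 ± 7.25 under nano-SiO2, 55.9 ± 15.2 under MT and 10.8 ± 2.26 in control (interaction -3.17). Glyma.04G222500 had the same order (interaction -2.87), and in both genes the combined spray overlapped control. Among positive genes with no function named, Glyma.17G208200 had 20.5, 52.0 and 4.74 FPKM under nano-SiO2+MT, 0.866, 0.960 and 0.627 under nano-SiO2, 10.1, 3.94 and 9.59 under MT and 22.8, 24.8 and 26.2 in control, uneven between nano-SiO2+MT libraries like the wall genes. Its interaction of 4.98 (SE 0.83) was the largest positive one, was kept in 8 of the 12 fits (limma adjusted p = 0.0553 without control 2), and its added effects fall below 0 FPKM. Glyma.10G006850 had an interaction of 2.49, kept in 9 of the 12 fits (limma adjusted p = 0.0581 without control 2).

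In 27 of the 148 genes the MT effect was called in opposite directions with and without nano-SiO2. MT lowered 22 of them in the presence of nano-SiO2 and raised them in its absence, and 5 went the other way. With nano-SiO2 present, MT was called higher in 0.308% and lower in 1.22% of all tested genes, and without it in 1.66% and 1.69%. The nano-SiO2 effect was called in opposite directions with and without MT in 29 genes, and 19 genes were in both sets. The nano-SiO2 effect was called in 0.294% of all tested genes with MT present (0.0672% higher, 0.226% lower) and without MT higher in 0.389% and lower in 0.103%. Within the 6 libraries of nano-SiO2+MT and MT, whose replicate numbers correlated, 103 genes were called with the replicate block and 53 without it, against 83 from all libraries. The 4 ferritins with the largest interactions, the iron superoxide dismutases and Glyma.02G282300 were among the genes of the MT set.

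**Figure D5:**
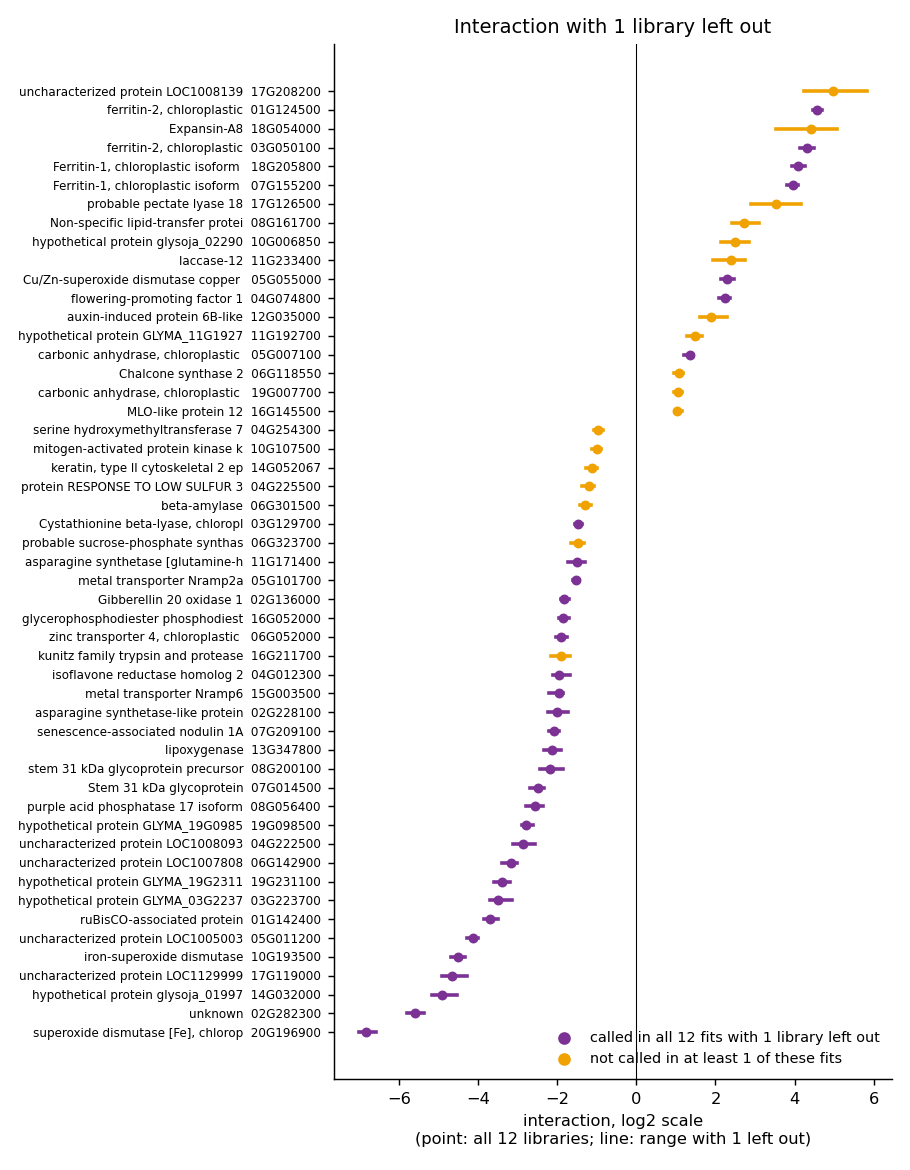
Interaction on the log2 scale (horizontal axis) of 51 called genes chosen by the naming rule, with all 12 libraries (points) and its range over the 12 fits with 1 library left out (lines); purple genes were called in all 12 of these fits, orange genes were not. The lines of Glyma.17G208200, Expansin-A8 and the pectate lyase are the longest, and no line crosses 0.

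Near the threshold, MLO-like protein 12 (Glyma.16G145500, interaction 1.04) and mitogen-activated protein kinase kinase 6 (Glyma.10G107500, -1.01) were the last genes inside, both with a limma adjusted p of 0.0487 and a call kept in 2 of the 12 fits with a library left out (0.163 without control 2 and 0.148 without MT 1). The sugar transporter SWEET40 (Glyma.15G149800, interaction -1.02, limma adjusted p = 0.0514) and the second YSL1 gene were the first outside. At an unadjusted p under 0.05, 2415 genes (8.55%) passed. Of the 40 gene lists chosen with earlier results known, 20 held at least 1 called gene, and 20 held none, among them 237 tested cytosolic ribosomal protein genes (median 0.27), 130 genes of sodium, proton and potassium transport (-0.18), 81 WRKY factors (-0.03), 52 NAC factors (-0.10), 178 heat shock proteins and chaperones (-0.05) and 37 aquaporins (-0.03).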

How the data were processed

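Leaf RNA of 12 libraries, 3 in each of 4 groups, was measured by RNA-seq. The deposited table gives FPKM per gene as the authors made it, with gene descriptions, and DESeq2 1.34.0 with R 4.1.2 is named in the submitters' processing notes. Not given in the sources used here are the aligner, the genome build, the counting program and its use of strand. FPKM values carry no absolute depth, so no counting intervals are given, and the number of libraries sets the precision.

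Genes at 1 FPKM or more in at least 3 libraries (28260 of 46446) were fitted on log2(FPKM + 1) with limma 3.58.1 in R 4.3.3, with a mean for each group, trend and robust settings, and Benjamini-Hochberg adjustment over all tested genes. An adjusted p is from this fit throughout, at a threshold of 0.05, and fold changes on this scale understate the change of low genes. The interaction is (nano-SiO2+MT minus nano-SiO2) minus (MT minus control). The replicate numbers did not pair the libraries over all 4 groups; between nano-SiO2+MT and MT all 3 same-numbered pairs correlated in their deviations from the group means (0.141, 0.384 and 0.355).

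Genes were named by a rule: among called genes with a group mean of at least 5 FPKM, the 12 largest interactions in each direction, the 4 largest of each shape and up to 2 of each list, and the 2 genes on either side of the threshold. Others in the text were chosen after their values were seen. The members and lists were chosen with earlier results of these data known; 6 lists were added after the values were seen, and the search words of 12 were corrected after the table was opened. Alternatives changed the pseudocount, the filter, the scaling, the scale, limma's settings, library weights, a replicate block, the threshold and the libraries used. The labels give all libraries the same batch, which leaves no batches to compare. No gene identifier matched the reference table, so sequences and coordinates are not used here.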

Additional observations from a re-analysis of the deposited data

Results flagged for a closer look

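In 148 genes the MT effect differed with and without nano-SiO2 by the test of the interaction itself. In 17 of the genes that the naming rule chose, MT moved the level in called and opposite directions in the presence and absence of nano-SiO2, and their interactions are collected here as values. They were positive in the ferritins Glyma.01G124500 (4.58), Glyma.03G050100 (4.31), Glyma.18G205800 (4.10) and Glyma.07G155200 (3.95), and in flowering-promoting factor 1, Glyma.04G074800 (2.23).

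They were negative in the iron superoxide dismutases Glyma.20G196900 (-6.86) and Glyma.10G193500 (-4.52). The genes with no function named were Glyma.02G282300 (-5.62), Glyma.14G032000 (-4.93), Glyma.17G119000 (-4.66) and Glyma.05G011200 (-4.15). The others were the ruBisCO-associated protein Glyma.01G142400 (-3.70), the lipoxygenase Glyma.13G347800 (-2.15), senescence-associated nodulin 1A, Glyma.07G209100 (-2.09), gibberellin 20 oxidase 1, Glyma.02G136000 (-1.85), Nramp2a, Glyma.05G101700 (-1.53), and cystathionine beta-lyase, Glyma.03G129700 (-1.47).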

How the results depend on the processing

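No named gene reversed its direction under any alternative run, and negative calls outnumbered positive ones in each. The median interaction over all tested genes was -0.10, and -0.0013 after median-ratio scaling or quantile normalization. The sign of list medians close to 0 is therefore not settled. Against 148 calls (34 positive, 114 negative), a mean of at least 5 FPKM gave 82 (21 and 61), with fewer genes tested. Library weights gave 469 (129 and 340), with control 2 weighted 10.9, and 146 of the 148 among them. Without control 1 and nano-SiO2 2 together there were 73 (13 and 60). With each library left out in turn the calls ran from 89 (without control 2) to 213 (without nano-SiO2+MT 3), the positive ones from 13 to 90 and the negative ones from 76 to 146, and the negative share was 57.7% without nano-SiO2+MT 3. The cause was not tested. The other settings gave 125 to 165 calls at the same threshold and kept 110 to 144 of the 148. The replicate block gave 165 calls, 136 of them shared, and lost Expansin-A8, Glyma.10G107500, Glyma.12G035000 and Glyma.16G211700 among the named genes; the labels give only numbers, same-numbered libraries correlated in their deviations from -0.34 to 0.53 over the 4 groups, and not every library correlated best with its own number. Cancelled genes numbered 50 when 0.25 counted as a move, and 84 to 94 with a library left out, an alternative chosen after seeing the data, as were the fits to 6 libraries. Of the named genes, leaving out 1 library kept the call or its absence in 494 cases, lost it in 140 and gained it in 2. Unknown depth leaves small interactions of genes under a few FPKM undecided.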

Other observations

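Markers of tissues other than leaf blade were measured beside the called genes. The 39 summed seed and pod genes ran from 312 to 340 FPKM under nano-SiO2+MT, 311 to 337 under nano-SiO2, 359 to 480 under MT and 260 to 307 in control. Of these genes 13 were tested and 1 was called (7.69%, against 0.524% of all tested genes). The 21 summed root and nodule genes, of which 7 were tested and 0 called, ran from 624 to 899 FPKM under nano-SiO2+MT, 527 to 598 under nano-SiO2, 615 to 736 under MT and 634 to 816 in control. Their part in the interactions was not tested.

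Some called genes stood next to each other in the order of gene identifiers. Of the 148 genes, 29 (19.6%) had another called gene within 10 tested genes to either side, against 9.39% of all tested genes, and they formed 11 runs, of which 10 held a single direction. One run held gibberellin 20 oxidase 1 (Glyma.02G136000, interaction -1.85) and DMR6-LIKE OXYGENASE 1 (Glyma.02G136300, -1.98). Another held the stem 31 kDa glycoprotein Glyma.08G200100 (-2.20) and an acid phosphatase precursor beside it (Glyma.08G200200, -1.92), whose call was kept in 3 of the 12 fits with a library left out (limma adjusted p = 0.136 without control 1). The largest had 6 genes on chromosome 18 and mixed signs. Neighbouring copies may share reads.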
